A study of Homo sapiens with 4 samples.

Results

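A set of 10 genes of the protein folding machinery was followed in HEK293 cells: HSPA1A, HSPA8, HSPA5, HSPA9, HSP90AA1, HSP90AB1, HSP90B1, HSPB1, DNAJB1 and HSPD1. They were chosen by name, and every array probe whose RefSeq accession belongs to one of these genes was taken. All 10 were found among the 17217 genes that the array names, on 12 transcript targets with 36 probes. HEK293 is a line made from human embryonic kidney with adenovirus DNA, and the study holds 4 plates of it as 1 group, untreated and grown in serum-containing medium, with a separate RNA extraction for each plate. Each RNA was read on 1 single-colour NimbleGen array of long probes. There is therefore no second condition, and values are compared between arrays and with control genes.

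Molecular chaperones bind unfolded proteins and release them in cycles driven by ATP, so that the chains can fold, assemble or be handed on for destruction. HSP70 proteins take a client from a J protein, and HSP90 proteins mature clients such as kinases and steroid receptors. HSP60 encloses a chain in a barrel, while small heat shock proteins hold chains without ATP. Heat and other damage raise several of these genes through heat shock factor 1, and misfolded protein in the endoplasmic reticulum (ER) raises the ER members through the unfolded protein response. Many of them are also made all the time in growing cells.

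The stress responses are known to act through short sequences in promoters, which were looked for before these genes. The 250 bases before the annotated start were searched on both strands in 35116 promoters of 27305 genes (RefSeq, GRCh38.p14), of which 16 promoters belong to the 10 genes. The heat shock element, bound by heat shock factor 1, was searched as GAA, TTC and GAA, each followed by the next after 2 bases of any kind, or the reverse complement. It was present in 4 of the 10 genes, HSPA8, HSP90AA1, HSP90AB1 and HSPD1, against 0.557% of all genes. By promoter it was 4 of 16, against 0.441% of all promoters. A pair of units, GAANNTTC, which every such element contains, was present in 7 of the 10 genes, against 7.05% of all genes. By promoter it was 7 of 16, against 5.78% of all promoters. HSPA1A, HSPB1 and DNAJB1 had the pair without the full pattern. Only exact letters were counted, so an element with a changed base is missed, and these genes are not shown to lack one. The ER stress element, CCAAT followed after 9 bases of any kind by CCACG, was present in HSPA5 and HSP90B1, the ER members. It was present in 0.0916% of all genes. By promoter it was 2 of 16, against 0.074% of all promoters. Each of these matches includes a CCAAT box. HSPA9 had none of these motifs in the window, which says only that the letters are not there.

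The stretches before 5 genes are shown 5′ to 3′, because they set an expressed gene with the heat shock element beside one known for stress only, and the ER genes beside a cytosolic one. Capitals mark the heat shock element in HSPA8, at chr11:123062137-123062386 (- strand), and in HSPA6, at chr1:161524290-161524539 (+ strand). In HSPA1A, at chr6:31815293-31815542 (+ strand), they mark the pair of heat shock units and the TATA box, TATAAA. In HSPA5, at chr9:125241344-125241593 (- strand), and in HSP90B1, at chr12:103930160-103930409 (+ strand), they mark the ER stress element.
HSPA8: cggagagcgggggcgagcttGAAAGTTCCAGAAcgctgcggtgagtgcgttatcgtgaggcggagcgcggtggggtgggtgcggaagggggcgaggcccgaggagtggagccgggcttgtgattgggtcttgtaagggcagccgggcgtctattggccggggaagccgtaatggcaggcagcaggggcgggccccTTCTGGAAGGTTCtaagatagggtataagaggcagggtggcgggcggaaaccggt
HSPA6: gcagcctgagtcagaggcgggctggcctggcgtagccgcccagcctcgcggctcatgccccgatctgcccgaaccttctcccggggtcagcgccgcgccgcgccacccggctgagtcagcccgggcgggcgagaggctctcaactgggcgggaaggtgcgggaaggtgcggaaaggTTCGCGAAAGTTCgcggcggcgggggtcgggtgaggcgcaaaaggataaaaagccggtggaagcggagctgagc
HSPA1A: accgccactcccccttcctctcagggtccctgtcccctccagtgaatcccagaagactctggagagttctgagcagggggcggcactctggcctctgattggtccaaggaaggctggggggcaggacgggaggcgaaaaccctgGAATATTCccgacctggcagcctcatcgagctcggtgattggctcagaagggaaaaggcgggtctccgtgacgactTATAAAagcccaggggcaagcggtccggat
HSPA5: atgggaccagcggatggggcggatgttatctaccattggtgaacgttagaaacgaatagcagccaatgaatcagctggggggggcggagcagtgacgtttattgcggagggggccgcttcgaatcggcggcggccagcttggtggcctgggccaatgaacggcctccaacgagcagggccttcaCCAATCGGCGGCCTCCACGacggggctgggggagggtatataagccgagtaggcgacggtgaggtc
HSP90B1: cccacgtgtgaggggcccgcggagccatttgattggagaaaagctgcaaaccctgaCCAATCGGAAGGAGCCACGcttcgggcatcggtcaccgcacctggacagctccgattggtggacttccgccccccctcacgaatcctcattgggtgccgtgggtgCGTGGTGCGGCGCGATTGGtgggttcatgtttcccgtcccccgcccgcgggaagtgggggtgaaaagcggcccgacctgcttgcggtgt

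Levels are log2 probe values, averaged over the probes of a gene. The study's rule for expression was used. On each array a baseline was set at the mean plus 2 SD of seminal protein genes that the study took as unlikely to be expressed. A gene's distance is its log2 level minus that baseline. The SD of a distance therefore also holds the spread of the baselines, whose SD over the arrays was 0.52. It can be narrower or wider than the SD of the gene's own level. For DNAJA4 the SD was 0.21 for the distance and 0.72 for the level, and for CDC37 it was 0.49 and 0.06. The baselines of replicates 1 to 4 were 9.47, 9.94, 10.69 and 10.32, the highest belonging to replicate 3. A gene is called detected where its mean distance is above 0. Probes differ in how well they bind, so distances of different genes do not rank their transcripts. ODF1, 1 of the 10 matched control genes, is itself a distant member of the small heat shock protein family. Its level ran from 6.05 to 7.30, and leaving it out of the controls put the baseline at 10.28 in place of 10.10. The control genes SPATA5 (AFG2A) and SPATA13 had mean levels of 9.97 and 9.72, while the other controls lay from 6.53 to 7.25. SPATA5 was above the baseline on replicate 3. Leaving both out put the baseline at 7.78, so calls of genes below 10.10 rest largely on them. Whether the cells express them was not tested. Of 8 markers of blood, liver, heart, glial, endothelial and red cells, 7 lay below the baseline on all 4 arrays, and the glial filament gene GFAP stood at 0.16 ± 0.78 log2 units (SD, n = 4).

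All 10 chaperone genes were detected, and each exceeded the baseline on every one of the 4 arrays. Among all named genes 52.7% were detected, and 45% exceeded it on every array. In bulk RNA, fewer expressing cells and less RNA per cell cannot be told apart. The median distance of the 10 was 4.78 log2 units, against 0.26 over all named genes. A one-sided moderated test of the distance against 0 (limma, Benjamini-Hochberg over all named genes) called 10 of 10, with 45.9% of all named genes called. The largest adjusted p among the 10 was 5.88e-07, for HSPA5. The test gave every gene the same standard error, 0.351 log2 units. Its p-values therefore do not measure a gene's own spread over the 4 arrays. For a single gene the smallest p of an exact sign-flip test with 4 arrays is 0.0625. The replicates' baselines move all genes of an array together, so the genes' tests are not independent.

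**Figure D1:**
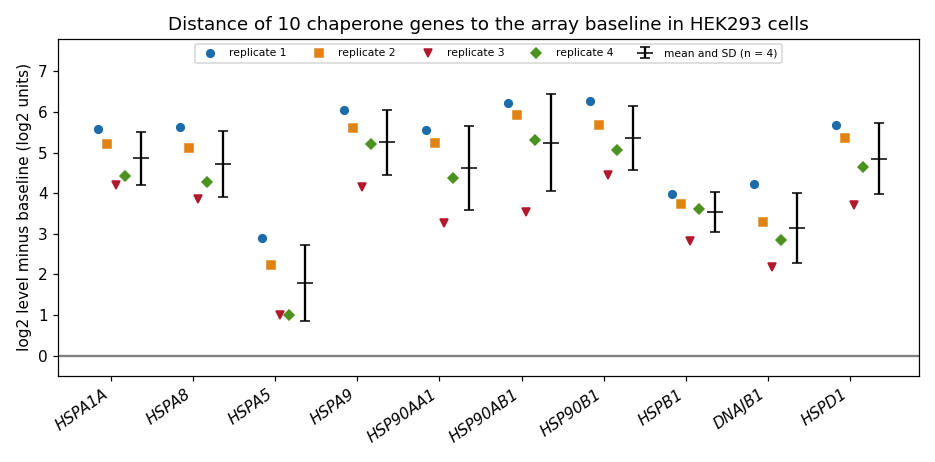
Distance of each of the 10 genes to the baseline of its array (log2 units), 1 point per replicate array, with the mean and SD over the 4 arrays in black; the grey line at 0 is the baseline. Every point lies above 0, and the lowest belongs to HSPA5 on replicate 3, at 1.00.

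The HSP70 members sit in different compartments. HSPA1A encodes the cytosolic HSP70 that is the textbook heat-inducible form. Its level was 15.06, 15.15, 14.88 and 14.75 on replicates 1 to 4, and its distance was 4.86 ± 0.66 log2 units (SD, n = 4). The SD of the level over the arrays was 0.18, against a median of 0.21 among the 500 genes nearest in level. HSPA1B, a near-identical copy beside it, gave 15.03, 15.12, 14.99 and 15.11 on replicates 1 to 4. The transcripts are so alike that probes of either gene may bind both, and their signals cannot be told apart.

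HSPA8 encodes the constitutive cytosolic HSP70, which also strips clathrin from vesicles. Its level was 15.10, 15.06, 14.54 and 14.60 on replicates 1 to 4, with a distance of 4.72 ± 0.81 (SD, n = 4). Replicates 1 and 2 were the higher pair of arrays for this gene. They were also the higher pair in the median of the 5661 genes in the level range of the 10. HSPA9, the mitochondrial HSP70 that pulls proteins through the inner membrane, gave 15.51, 15.55, 14.85 and 15.53, a distance of 5.25 ± 0.80 (SD, n = 4). Replicates 1, 2 and 4 lay close together, and replicate 3 alone was lower. HSPA5, known as BiP, is the HSP70 of the ER and the sensor-binding chaperone of the unfolded protein response. Its level was 12.37, 12.16, 11.69 and 11.33, and its distance of 1.78 ± 0.94 (SD, n = 4) was the smallest of the 10. With a baseline of 3 SD in place of 2 SD it stood at 0.47 and no longer passed the test (limma adjusted p = 0.335).

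Of the 11 measured genes of the HSP70 family 8 were detected. The others detected were HSPA1B, HSPA2 at 2.27 ± 0.79, HSPA13 at 1.57 ± 1.04 and HSPA14 at 4.31 ± 0.78 log2 units (SD, n = 4 for each). HSPA6, an HSP70 gene known for being made only under strong stress, lay below the baseline on every array, at levels of 8.17, 7.87, 8.28 and 7.33. Its distance was -2.19 ± 0.71 (SD, n = 4). This call depended on the control genes: without SPATA5 and SPATA13 among them the baseline was 7.78, HSPA6 stood at 0.13 (limma adjusted p = 0.434) and all 11 HSP70 genes were detected. The testis gene HSPA1L, a neighbour of HSPA1A, stood at -0.57 ± 1.00, and HSPA12B at -1.30 ± 1.70 (SD, n = 4 for each). HSPA12B was above the baseline on 2 of 4 arrays, with levels of 7.23 and 7.48 on replicates 1 and 3 and of 10.18 and 10.34 on replicates 2 and 4. All 4 HSP110 genes, large HSP70 relatives that exchange nucleotide, were detected: HSPA4 at 4.66 ± 0.63, HYOU1 at 4.63 ± 0.65, HSPH1 at 3.67 ± 0.95 and HSPA4L at 2.43 ± 0.54 (SD, n = 4 for each).

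The HSP90 members covered the cytosol and the ER. HSP90AB1, the constitutive cytosolic form, gave 15.69, 15.86, 14.22 and 15.63 on replicates 1 to 4, a distance of 5.25 ± 1.21 (SD, n = 4). Replicate 3 was lower than each of the other arrays by more than 1 log2 unit. HSP90AA1, the inducible cytosolic form, gave 15.04, 15.18, 13.95 and 14.70, a distance of 4.61 ± 1.03 (SD, n = 4). It too was lowest on replicate 3. HSP90B1, the ER form known as GRP94, gave 15.73, 15.61, 15.13 and 15.38, a distance of 5.36 ± 0.79 (SD, n = 4). TRAP1, the mitochondrial form, stood at 4.94 ± 0.62 (SD, n = 4), so that all 4 HSP90 genes were detected. Of 16 HSP90 co-chaperones 13 were detected, among them the kinase adaptor CDC37 at 4.74 ± 0.49, the HSP70-HSP90 linker STIP1 at 5.64 ± 0.51 and p23, PTGES3, at 5.14 ± 0.83 (SD, n = 4 for each). Below the baseline lay, among others, the muscle myosin chaperone UNC45B at -2.57 ± 0.63 and SUGT1 at -2.51 ± 0.73 (SD, n = 4 for each).

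DNAJB1, the J protein that loads clients onto cytosolic HSP70, gave 13.69, 13.24, 12.88 and 13.18 on replicates 1 to 4. Its distance was 3.14 ± 0.85 (SD, n = 4), and replicate 1 stood highest. Of 47 measured J proteins 32 were detected, 25 of these on every array, with a family median of 0.97. With a baseline of 3 SD 19 were detected, and without SPATA5 and SPATA13 among the controls 42 were. The cytosolic DNAJA1 stood at 4.80 ± 0.83, DNAJA2 at 4.76 ± 0.72 and the ER gene DNAJB11 at 4.24 ± 0.79 (SD, n = 4 for each). The lowest 5, each below the baseline on all 4 arrays, were DNAJB13 at -3.59 ± 0.79, DNAJB7 at -3.16 ± 0.24, DNAJC5B at -2.98 ± 0.45, DNAJA4 at -2.51 ± 0.21 and DNAJC28 at -2.49 ± 0.35 (SD, n = 4 for each). Of 13 exchange factors, which release nucleotide from HSP70, 12 were detected. The exception was BAG1 at -0.66 ± 0.79, which stood at 1.66 without SPATA5 and SPATA13 among the controls, while the stress-inducible BAG3 stood at 2.70 ± 0.90 (SD, n = 4 for each).

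HSPD1 encodes HSP60, the barrel chaperonin of mitochondria. Its level was 15.14, 15.30, 14.39 and 14.97 on replicates 1 to 4, with a distance of 4.85 ± 0.87 (SD, n = 4). HSPE1, the lid of the barrel, whose gene lies head to head with HSPD1, gave 12.66, 12.82, 10.75 and 12.23, a distance of 2.01 ± 1.41 (SD, n = 4). Both genes were highest on replicate 2 and lowest on replicate 3. Of 11 chaperonin genes 10 were detected. The cytosolic ring TRiC, which folds actin and tubulin, had CCT3 at 5.54 ± 0.74, CCT7 at 5.35 ± 0.61 and TCP1 at 5.18 ± 0.61, and CCT5 at 0.91 ± 0.76 (SD, n = 4 for each). With a baseline of 3 SD CCT5 stood at -0.41. The testis paralogue CCT6B lay at -1.58 ± 0.92 (SD, n = 4), below the baseline on all 4 arrays, and at 0.745 without SPATA5 and SPATA13 among the controls. All 6 prefoldin subunits, which pass chains to TRiC, were detected, with a median distance of 3.70.

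HSPB1 encodes HSP27, a small heat shock protein. Its level was 13.46, 13.67, 13.52 and 13.93 on replicates 1 to 4 and its distance 3.54 ± 0.50 (SD, n = 4). It was the only one of the 10 that was lowest on replicate 1. Leaving out ODF1, which helps to set the baseline, 4 of 9 small heat shock protein genes were detected (44.4%, against 52.7% of all named genes), and the family median was -1.43. The others detected were HSPB8 at 1.64 ± 1.13, HSPB6 at 1.62 ± 0.77 and HSPB7 at 0.88 ± 1.43 (SD, n = 4 for each), the last on 3 of 4 arrays and at -0.43 with a baseline of 3 SD. The lens crystallin genes CRYAA and CRYAB lay at -2.89 ± 0.27 and -3.43 ± 0.54, and HSPB2 at -3.53 ± 0.43 (SD, n = 4 for each).

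Around these genes, 157 of 163 listed genes of the folding network were measured and 121 (77.1%) were detected. Without the 10 genes it was 111 of 147 (75.5%), with a median distance of 2.06 log2 units. Of 4 measured genes, heat shock factors and the factor-binding HSBP1, 3 were detected: HSF1 at 2.82 ± 0.33, HSF2 at 3.28 ± 0.69 and HSBP1 at 3.45 ± 0.67 (SD, n = 4 for each). HSF4, a factor of the lens, lay at -3.11 ± 0.59 (SD, n = 4). Of 12 unfolded protein response genes 10 were detected, with XBP1 at 3.90 ± 0.59, ATF4 at 3.57 ± 0.64 and DDIT3 at 1.43 ± 1.06 (SD, n = 4 for each). The 2 not detected were ERN1 at -0.75 ± 1.20 and SEL1L at -2.61 ± 0.55 (SD, n = 4 for each). ERN1 had levels of 7.65 and 8.17 on replicates 1 and 2 and of 10.96 and 10.62 on replicates 3 and 4. Of 17 ER folding genes 13 were detected, CALR at 5.48 ± 0.62 and P4HB at 4.78 ± 0.65 among them (SD, n = 4 for each). PDIA3 and ERP44 lay near the baseline at -0.10 ± 0.50 and -0.23 ± 0.95, and CALR3 and PDIA2 lay at -1.77 ± 1.79 and -1.79 ± 0.38 (SD, n = 4 for each). All 17 were detected without SPATA5 and SPATA13 among the controls. All 6 mitochondrial protease genes were detected, with a median of 2.72.

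**Figure D2:**
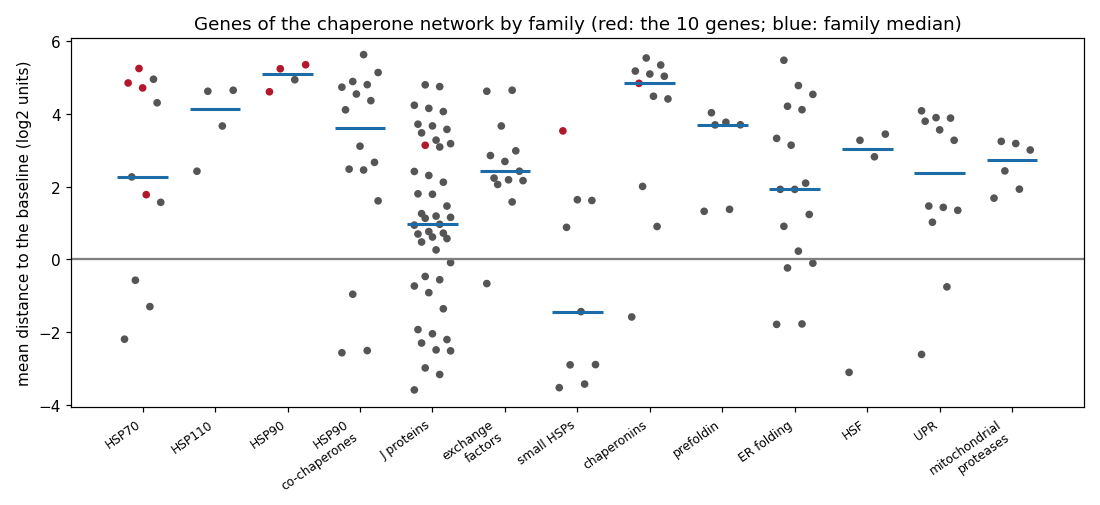
Mean distance to the baseline (log2 units, mean of 4 arrays) of each measured gene of the folding network, grouped by family, without the control gene ODF1, with the 10 genes in red, the other genes in dark grey and each family's median as a blue line. All HSP90, HSP110 and prefoldin genes lie above 0, while the small heat shock protein median lies at -1.43.

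Within a gene the same probes are read on each array, so arrays were set side by side. The values have the form of quantile normalization in 2 separate pairs, replicates 1 and 2 and replicates 3 and 4. A comparison across the pairs therefore also holds any shift between them. Among the 5661 genes described next, the median level relative to the gene's own mean was 0.11, 0.10, -0.05 and -0.09 on replicates 1 to 4. The lowest level fell on replicate 3 for 7 of the 10 genes, on replicate 4 for 2 and on replicate 1 for 1. Among the 5661 genes whose mean level lay in the same range, 11.89 to 15.46, replicate 3 was lowest for 34.4% and replicate 4 for 35.6%. Relative to the gene's own mean over the arrays, replicate 3 stood at -1.13 log2 units for HSP90AB1 and at -0.77 for HSP90AA1. The 5th percentile of the genes in that level range on replicate 3 was -0.68. Of the 500 genes nearest in level to HSP90AB1, 0% had a deeper value on replicate 3, and of those nearest to HSP90AA1 2.8% did. The corresponding shares were 7.0% for HSPD1 and 8.6% for HSPA9. Those of the other 6 genes ran from 17.4% for DNAJB1 to 56.4% for HSPA1A.

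**Figure D3:**
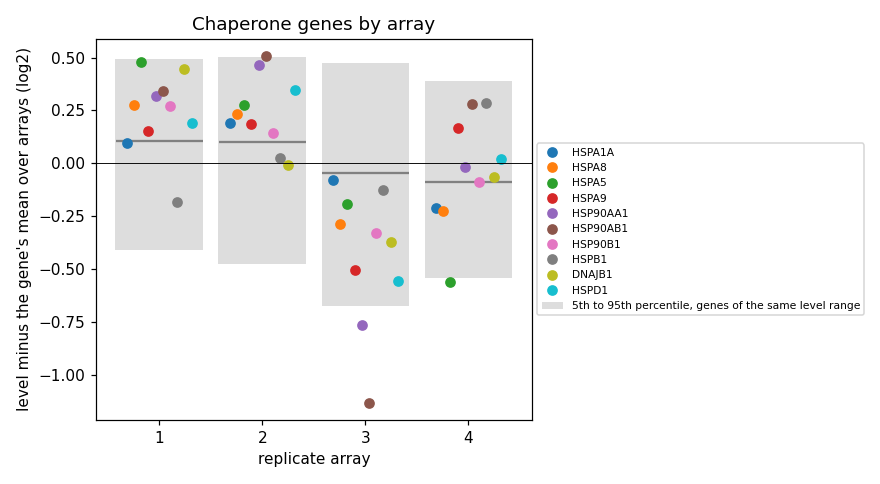
Level of each of the 10 genes on each replicate array minus that gene's mean over the 4 arrays (log2 units), with grey bars from the 5th to the 95th percentile and a grey line at the median of the 5661 genes in the same range of levels. On replicate 3 all 10 points are below 0 and HSP90AB1 lies lowest, at -1.13.

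Without replicate 3 the SD of HSP90AB1 fell from 0.76 to 0.12, that of HSPA9 from 0.34 to 0.02, that of HSPD1 from 0.40 to 0.16 and that of HSP90AA1 from 0.55 to 0.25. The median SD of the genes in the level range was 0.29 with all arrays and 0.26 without replicate 3. The number of the 10 genes above that median was 7 with all arrays and 3 without replicate 3, and 5, 8 and 8 without replicates 1, 2 and 4. Replicate 3 was singled out after it was seen to be low, so smaller SDs without it follow from that choice. HSPA5 kept a wide spread, with an SD of 0.47 with all arrays and 0.55 without replicate 3. By the root mean square difference of the centred levels over 4 arrays, the genes most like HSPA1A were NT5C3A (0.0035), CPVL (0.0077) and TSR3 (0.011 log2 units). With 4 arrays 612 genes lay within 0.1 of it.

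Single probes showed how far each gene level rested on 1 of its probes. On replicate 3, 11 of 36 probes of the 10 genes (30.6%) lay more than 1 log2 unit under their mean on the other arrays. The share was 14.2% among the 27597 probes in the same range of brightness, which were not matched in brightness within that range. On replicate 4 it was 2 of 36 (5.56%, against 4.88%), and on replicates 1 and 2 it was 0 of 36, against 3.66% and 3.68%. For HSPA9, 1 probe read 15.69, 15.60, 13.53 and 15.86 on replicates 1 to 4. Another read 15.69, 15.60, 15.47 and 15.81. The lower level of HSPA9 on replicate 3 thus rested on 1 of its 3 probes. For HSP90AB1 replicate 3 minus the mean of the other arrays was -0.78, -2.34 and -1.86 log2 units for the 3 probes.

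HSP90AA1 had 2 targets with 3 probes each. All 6 probes were lower on replicate 3 than on the mean of the other arrays, with differences from -0.22 to -3.68 log2 units. The dimmest one read 13.32, 14.00, 9.93 and 13.52 on replicates 1 to 4. HSPA8 also had 2 targets. The 3 probes of the first stood 0.01 to 0.18 above the mean of the other arrays on replicate 3, while 2 probes of the second stood at -1.67 and -1.75. The targets of HSPA8 therefore differed on replicate 3, at 14.89 and 14.19. For HSPB1 the brightest probe read 14.90, 15.00, 14.89 and 15.30 and the dimmest 10.11, 10.85, 10.44 and 11.09. The means of its 3 probes were 15.02, 11.71 and 10.62. The level of HSPB1 follows the bright probe, and with the median of the probes its distance was 1.74 in place of 3.54. The 3 probes of DNAJB1 spanned 2.63 log2 units, and with their median its distance was 2.07 in place of 3.14. Its brightest probe was lowest on replicate 3, at 13.67, and its other 2 probes were lowest on replicate 4.

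Many of these signals were close to the top of the values, 15.99 log2 units, which a probe of HSP90B1 gave on replicate 1. Whether the scale ends there was not tested. Of 144 probe values of the 10 genes 64 (44.4%) lay within 1 log2 unit of the top, against 2.69% of all probe values. The share was 91.7% for HSP90B1, 75.0% for HSPA9 and HSP90AB1, and 0% for HSPA5 and DNAJB1. The part of nearness to the top in the differences between arrays was not tested.

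**Figure D4:**
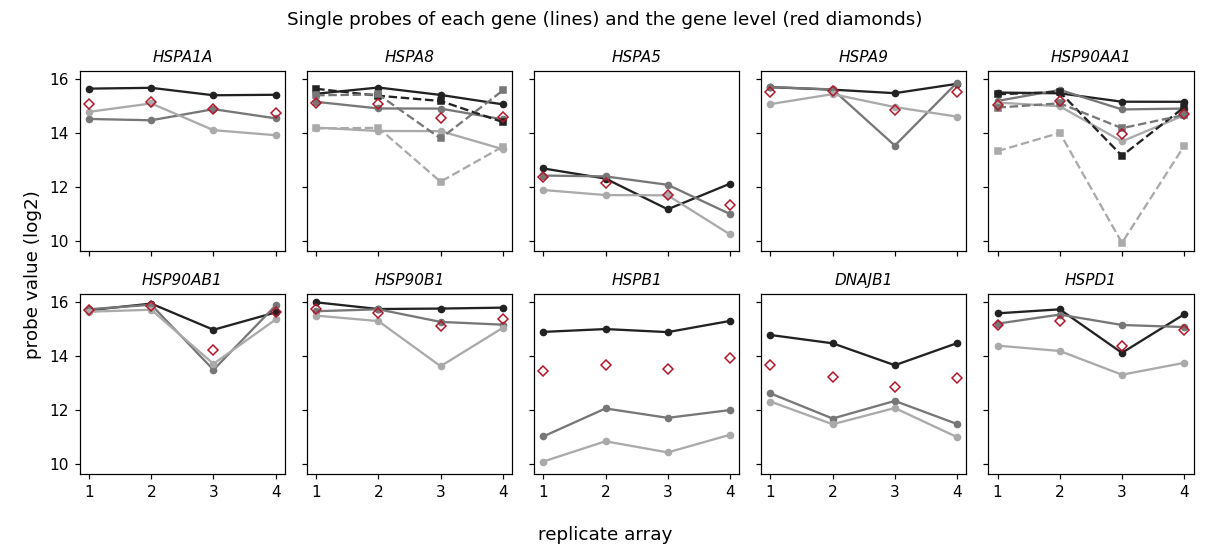
Value of every single probe of the 10 genes (log2) on the 4 replicate arrays, with solid lines for probes of the first target, dashed lines for those of a second target, darker shades for brighter probes and red diamonds for the gene level. In HSPA9 1 of 3 probes is lower on replicate 3 (13.53), while in HSP90AB1 all 3 are.

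HSPA8 held 2 heat shock elements, with first bases at -230 and -55 relative to the transcript start, and HSPA6 held 1, at -74. The levels behind them were 14.54 to 15.10 for HSPA8 and 7.33 to 8.28 for HSPA6, so that the same motif stood before a gene above the baseline on all 4 arrays and a gene below it on all 4, a call on HSPA6 that turned without SPATA5 and SPATA13 among the controls. In HSPA1A the pair of units began at -106 and the TATA box at -30. HSP90B1 held 2 ER stress elements, beginning at -194 and -89, and HSPA5 held 1, at -66. In the whole network 8 measured genes held the heat shock element and 7 of them were detected, HSPA6 being the exception with the baseline used here. CHORDC1 at 3.12 ± 0.86, DNAJB6 at 3.67 ± 0.65 and SERPINH1 at 4.12 ± 0.68 were the others outside the 10 (SD, n = 4 for each). All 7 network genes with the ER stress element were detected, among them CANX at 3.33 ± 0.86 and PDIA6 at 4.22 ± 0.71 (SD, n = 4 for each). Of all measured network genes, with or without a motif, 121 of 157 (77.1%) were detected. With so few genes these counts do not set those with a motif apart.

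The motifs were also counted over all genes. Of 68 measured genes with the heat shock element 33 (48.5%) were detected, with a median distance of -0.25, against 55.0% and 0.52 over the 13807 measured genes with a promoter entry. For the ER stress element it was 12 of 19 genes (63.2%), with a median of 1.74. Of these 19 genes 7 were network genes, and all 7 were detected. For the TATA box, present in 10.7% of promoters, it was 580 of 1618 genes (35.8%). No test was made of these shares, which include the genes of the network.

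**Figure D5:**
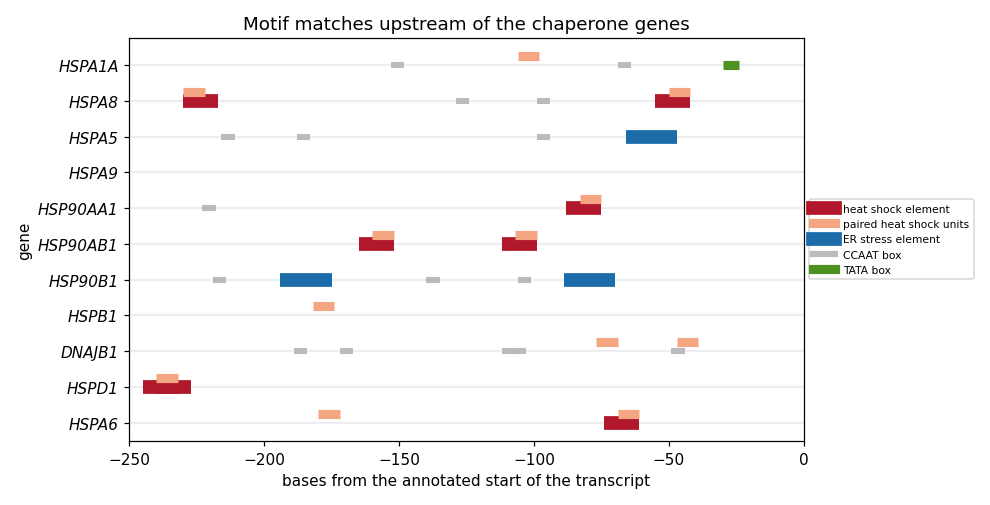
Position of motif matches in the 250 bases before the annotated transcript start (horizontal axis, in bases, start at 0) for the 10 genes and HSPA6, with the matches of all annotated starts of a gene drawn together and a pair of heat shock units drawn raised. HSPA8 and HSP90AB1 each show 2 separate heat shock elements, HSPD1 shows 2 that overlap, and HSP90B1 shows 2 ER stress elements.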

How the data were processed

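RNA of 4 HEK293 plates was hybridised to 4 arrays, which the labels number as replicates of 1 group. The deposited table holds the authors' log2 values for 71998 probes of an HG18 design on each array. The submitters' processing notes name RMA, with no settings given. Sorted values agreed within 0.01 at 99.97% of ranks between replicates 1 and 2 and at 99.99% between replicates 3 and 4, and at 1.23% to 1.25% across these pairs, which is the form of quantile normalization in 2 separate pairs. How arrays were paired on slides is not given in the sources used here. No raw intensities were used, and the number of arrays limits the precision.

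Of 24000 targets 19125 received a gene name through unversioned accessions in a RefSeq table (GRCh38.p14), used for names and promoters. Probes were averaged on the linear scale and put back on the log2 scale per target, and targets were averaged per gene. Of 11 control genes 10 were matched. The test was limma 3.58 in R 4.3 with an intercept only, one-sided, with Benjamini-Hochberg adjustment at 0.05. A run on simulated data used independent noise of the same size for all genes and no shift of whole arrays. It therefore could not check the test under the shared baseline shifts of these arrays. The moderated standard error was 0.351 for every gene. Genes were named as members, members of short lists, genes on the rarer side of the baseline in longer lists (up to 10), and genes with an array that stood apart. The alternatives tried are given in the closing section. Other network genes, and those with a motif, were named as examples after their values were seen. The members and lists were chosen with earlier results of these data known. The values of 1 listed gene are not reported here.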

Additional observations from a re-analysis of the deposited data

Results flagged for a closer look

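Among 157 genes of the folding network 5 had 1 array with an outlying log2 level in Dixon's test at 95%, which divides the gap to the nearest array by the whole range. Chance marks about 1 in 20, and 4.81% of all 17217 named genes passed. In all 5 the array was replicate 3, and it was the lowest. How often replicate 3 was the outlying array among all named genes that passed was not counted. The ratio was 0.949 for HSPA9, 0.863 for HSP90AB1, 0.917 for HSCB, 0.903 for CCT3 and 0.855 for HERPUD1. HSCB, a J protein of iron-sulphur cluster assembly, had levels of 10.79, 10.66, 9.26 and 10.76 on replicates 1 to 4. CCT3 had 15.75, 15.81, 15.25 and 15.78, and HERPUD1, a gene of ER-associated degradation, had 13.75, 13.85, 12.31 and 13.63. Replicate 3 also had the highest baseline of the 4 arrays, at 10.69. The part of array quality in these values was not tested.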

How the results depend on the processing

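All 10 genes remained above the baseline on average under every alternative run, which covered the height and the genes of the baseline, the summary of probes and targets, a joint quantile normalization, each array left out, and replicates 1 and 2 or 3 and 4 alone. Of 521 recomputed values 19 moved. A count or SD was said to move if it changed over 1.5 times, the baseline if by more than its SD over the arrays. The distances of the 10 genes were marked only where the limma call changed, and 1 lost significance. The size of their changes was not counted. Over the alternatives HSPB1 ran from 1.74 to 5.86, DNAJB1 from 1.82 to 5.47 and HSPA5 from 0.47 to 4.11. The baseline of 10.10 log2 units became 11.42 with 3 SD, 8.79 with 1 SD, 7.78 without SPATA5 and SPATA13 and 8.02 with olfactory receptor genes as controls. With 3 SD 19 J proteins were detected, limma called 4922 named genes in place of 7904, HSPA5 stood at 0.47 (limma adjusted p = 0.335), and 19 network genes fell below the baseline. Without SPATA5 and SPATA13 12747 named genes were detected in place of 9074, and 22 of the 36 network genes below the baseline rose above it, HSPA6, BAG1, CALR3 and PDIA2 among them; with olfactory receptor genes 19 did, and HSPA6 stayed below at -0.11. HSPB7 stood at -0.43 with 3 SD, at -0.47 with the mean of log2 probe values and at -1.20 with the median of the probes, and CCT5 at -0.41 with 3 SD. The SD over the arrays became 0.47 for HSPB1, 0.47 for HSPA8, 0.53 for DNAJB1 and 0.61 for HSPD1 with the median of the probes, 0.35 for HSPB1 with the mean of log2 values, 0.31 for HSP90AA1 with the highest target and 0.11 for HSPA1A with joint quantile normalization. With 1 array left out the SD ran from 0.02 (0.0178) to 0.39 for HSPA9, 0.25 to 0.67 for HSP90AA1, 0.12 to 0.90 for HSP90AB1, 0.11 to 0.26 for HSPB1, 0.19 to 0.41 for DNAJB1 and 0.16 to 0.48 for HSPD1. No paired analysis was possible because the series holds 1 group.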
